A study of Mus musculus with 8 samples.

Results

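The chromatin of 10 transcription factor genes listed for their part in lineages outside the brain was examined in SN4741 cells. They were taken out of 21938 protein coding genes in GENCODE mouse release M21. The genes were listed by function and not by their peaks. They were Gata2, Gata3, Gata4 and Gata6 of the GATA family, Tal1 and Spi1 of blood, Myod1 of skeletal muscle, Hnf4a of liver, Cdx2 of gut and trophoblast, and Pou5f1 of pluripotent cells. A locus was the gene body with 20 kb on each side, on mm10, which made windows of 42.6 kb (Myod1) to 113 kb (Gata4).

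SN4741 is a line, reported to be clonal, made from the substantia nigra of mouse embryos that carried a temperature-sensitive SV40 T antigen driven by the tyrosine hydroxylase promoter. The line is used as a neural precursor of dopaminergic neurons, and the study asked how well its chromatin fits that use. ATAC-seq, which tags DNA that a transposase can reach, was run on 4 libraries of cells held at 37 °C, the permissive temperature, in 10% serum. A further 4 libraries came from cells of the same line moved to 39 °C, where the activity of the T antigen is reduced, in 0.5% serum for 48 h. Each library came from an aliquot of 50000 cells, and the labels do not state whether the 4 aliquots of a group were separate cultures. Temperature and serum changed together and cannot be told apart. The line has an abnormal and variable karyotype by the study's own account, so the number of copies of each locus was not known.

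GATA factors are zinc finger proteins that bind the sequence for which they are named. GATA2 acts in blood stem cells and in some neurons, GATA3 in T cells and in the sympathetic nervous system, and GATA4 and GATA6 in heart and gut. A place in the list thus does not exclude a part in the brain. The other regulators here belong to the small group of proteins that can start or hold a lineage programme, and their genes usually lie in closed or repressed chromatin in unrelated cells. Many of them have promoters rich in CpG, a class that is often accessible without the gene being active, so an accessible promoter is not a measure of RNA. RNA was not analysed here.

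The libraries held 49.8 to 169 M fragments at 37 °C and 52.7 to 71.2 M at 39 °C after the peak caller dropped repeats, and 37 °C replicates 1 and 4 stood apart with 169 and 158 M. They gave 74026 to 92013 peaks at 37 °C and 54845 to 68410 at 39 °C, so every list at 39 °C was shorter than every list at 37 °C. A peak was called in the promoter of 65.1% to 67.8% of coding genes at 37 °C and 60.5% to 63.0% at 39 °C. Because list length and temperature moved together, results are given below also for lists of equal length, the 54845 strongest peaks of each library. The neural precursor markers Nes and Sox2 had a promoter peak in all 8 libraries, and Fabp7 had none in any library. Of 8 markers of fibroblasts and mesenchyme, 6 had a promoter peak in all 8 libraries, Col1a1, Prrx1 and Twist1 among them, so promoter peaks were called at markers of both kinds. Markers of other tissues were mixed. Of 4 blood markers, Ptprc and Cd3e had no promoter peak in any library, Cd68 had one in all 8 and Csf1r in 4 libraries at 37 °C and 3 at 39 °C. Of 3 liver markers, Alb and Afp had none and Apoa1 had 4 and 3. Of 3 muscle markers, Myog had none, Des 4 and 0 and Acta1 1 and 0, and of 3 epithelial markers, Krt8 had 4 and 4, Epcam 4 and 3 and Cdh1 3 and 0.

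The promoters of the 10 genes fell into 3 sets by presence of a peak within 1 kb of an annotated start site. Gata2, Gata3, Gata4, Gata6 and Cdx2 had one in all 8 libraries. Tal1 and Pou5f1 had one in 4 of 4 libraries at 37 °C and 0 of 4 at 39 °C, and Spi1 in 3 of 4 and 0 of 4. Myod1 and Hnf4a had none in any library. RefSeq promoter sequences (250 bases before to 50 after a start site, GRCm38.p6, the assembly of mm10) were matched to 6 of the 10 genes, and 6 of those sequences are shown because they cover these sets, with each CG in capitals:
Gata3 promoter, chr2:9878551-9878850, minus strand: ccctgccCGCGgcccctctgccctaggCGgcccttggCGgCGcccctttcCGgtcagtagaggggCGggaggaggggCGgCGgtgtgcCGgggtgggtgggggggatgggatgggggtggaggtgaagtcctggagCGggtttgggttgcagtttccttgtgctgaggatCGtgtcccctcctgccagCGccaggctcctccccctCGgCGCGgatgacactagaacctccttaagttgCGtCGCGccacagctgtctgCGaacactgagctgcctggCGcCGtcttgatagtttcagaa
Cdx2 promoter, chr5:147307200-147307499, minus strand: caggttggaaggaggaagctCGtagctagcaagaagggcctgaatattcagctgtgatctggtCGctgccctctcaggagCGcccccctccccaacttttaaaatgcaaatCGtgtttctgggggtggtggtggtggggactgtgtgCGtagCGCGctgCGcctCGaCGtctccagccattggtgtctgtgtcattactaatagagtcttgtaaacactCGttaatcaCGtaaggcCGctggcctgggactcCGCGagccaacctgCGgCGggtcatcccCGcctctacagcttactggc
Tal1 upstream promoter, chr4:115056176-115056475, plus strand: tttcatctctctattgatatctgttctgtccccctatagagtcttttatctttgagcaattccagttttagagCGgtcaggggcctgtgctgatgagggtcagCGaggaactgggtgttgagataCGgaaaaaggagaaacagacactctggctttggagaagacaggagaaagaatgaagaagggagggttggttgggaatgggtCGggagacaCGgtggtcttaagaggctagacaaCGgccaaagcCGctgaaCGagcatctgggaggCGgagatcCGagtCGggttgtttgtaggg
Pou5f1 upstream promoter, chr17:35505782-35506081, plus strand: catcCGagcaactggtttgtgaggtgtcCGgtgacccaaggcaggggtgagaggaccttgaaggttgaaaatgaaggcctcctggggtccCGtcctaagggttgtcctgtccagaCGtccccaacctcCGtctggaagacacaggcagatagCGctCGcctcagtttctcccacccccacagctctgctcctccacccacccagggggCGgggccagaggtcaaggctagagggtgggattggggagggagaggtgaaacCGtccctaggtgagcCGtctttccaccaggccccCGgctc
Pou5f1 internal promoter, chr17:35508557-35508856, plus strand: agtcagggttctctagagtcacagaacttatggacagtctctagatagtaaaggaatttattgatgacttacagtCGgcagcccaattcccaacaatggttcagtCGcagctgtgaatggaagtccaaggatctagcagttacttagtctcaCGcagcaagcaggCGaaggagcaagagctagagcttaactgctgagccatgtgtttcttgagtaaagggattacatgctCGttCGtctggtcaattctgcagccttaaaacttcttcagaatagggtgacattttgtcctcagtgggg
Hnf4a upstream promoter, chr2:163506607-163506906, plus strand: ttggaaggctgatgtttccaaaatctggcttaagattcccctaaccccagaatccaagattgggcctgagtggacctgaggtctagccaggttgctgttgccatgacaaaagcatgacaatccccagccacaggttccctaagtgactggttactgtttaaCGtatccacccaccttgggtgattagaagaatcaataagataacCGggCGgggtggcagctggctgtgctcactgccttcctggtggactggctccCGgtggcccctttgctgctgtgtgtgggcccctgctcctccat
The Gata3 sequence held 22 CpG in 300 bases and the Cdx2 sequence 18, and both lay within 1 kb of a peak in all 8 libraries. The upstream Tal1 start held 11 and a second Tal1 start, at chr4:115057561-115057860 and not shown, held 22, as many as Gata3, and both lay near a peak at 37 °C only. Of the Pou5f1 starts, the upstream one held 11 CpG and had no peak in any library, while the internal one held 6 and had a peak at 37 °C only. The Hnf4a start, with 4, had none. Over all RefSeq promoters the median was 20 CpG for the 14827 with a peak in all 8 libraries, 6 for the 512 with a peak in every 37 °C library and in none at 39 °C, and 3 for the 14801 with no peak. The open promoters of Gata3 and Cdx2 were therefore near the middle of their class. Those matched to Gata2, not shown and also near a peak in all 8 libraries, held 32 and 29 CpG, where the upper quartile of the class was 29. In contrast, the upstream Pou5f1 promoter, without a peak, held more CpG than most promoters without a peak, of which 11.1% held 10 or more.

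In all, 5 of the 10 genes had a promoter peak in at least 2 libraries at both temperatures, against 62.7% of all coding genes, and the same 5 had one in all 8 libraries, against 59.9%. No promoter peak in any library was found for 2 of the 10, against 31.3% of coding genes. Per library, 8, 8, 7 and 8 of the 10 promoters had a peak at 37 °C and 5 in each of the 4 libraries at 39 °C. A promoter peak in every 37 °C library and in none at 39 °C, seen in 2 of the 8 genes with any promoter peak, was found in 2.13% of the 15065 such coding genes. The opposite pattern was seen in 0 of 8 and in 0.0199% of all. For Tal1 and Pou5f1 the two-sided Fisher exact p was 0.0286, the smallest that 4 libraries against 4 allow, and 1 after Benjamini-Hochberg adjustment over all coding genes. For Spi1 it was 0.143.

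Promoter strength was read as the percentile of −log10 q within a library's own list, where 100 is the strongest peak, taking the strongest peak within 1 kb of a start site. The 4 GATA genes ranked well above Cdx2, and Tal1, Pou5f1 and Spi1 were lower, at mean percentiles of 21.5, 15.3 and 6.56 in the 37 °C libraries where they were called. Averaged over 8 libraries, Gata3 stood at 91.2, Gata2 at 80.7, Gata4 at 73.4, Gata6 at 70.7 and Cdx2 at 40.2, and the median over the 13145 coding genes with a promoter peak in all 8 libraries was 90.0. Only Gata3 was above that median. The Cdx2 promoter was weaker than all but 2.95% of these genes.

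**Figure D1:**
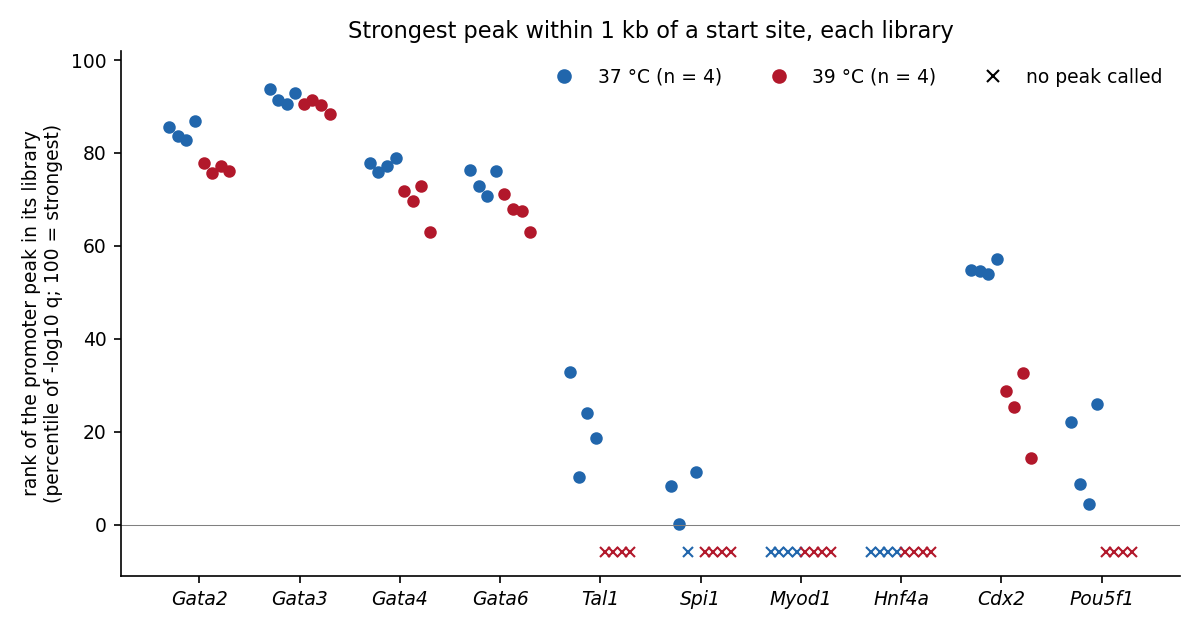
Percentile of −log10 q within its own peak list (vertical axis, 100 is the strongest peak) of the strongest peak within 1 kb of a start site, for 10 genes in 4 libraries at 37 °C (blue) and 4 at 39 °C (red), 1 point per library, with crosses where no peak was called. The 4 GATA genes lie between 63.1 and 93.7 in every library, Cdx2 lies between 14.3 and 32.7 at 39 °C, and Tal1, Spi1 and Pou5f1 have crosses in all 4 libraries at 39 °C.

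Cdx2, the homeobox regulator of intestine and trophoblast, had the lowest difference of the 5. Its promoter percentile was 54.8, 54.5, 53.9 and 57.1 in the 37 °C libraries and 28.7, 25.3, 32.7 and 14.3 in the 39 °C libraries. The groups were far apart, and the lowest value was in 39 °C replicate 4, the library with the fewest peaks. The means were 55.1 ± 1.42 and 25.3 ± 7.88 (SD, n = 4 each), a difference of -29.8 percentile points, and only 0.898% of coding genes had a lower one. The two-sided exact permutation p was 0.0286, with an adjusted p of 0.0540 over all coding genes.

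Gata2 ranked at 85.6, 83.6, 82.7 and 86.9 at 37 °C and at 77.7, 75.7, 77.3 and 76.1 at 39 °C. Gata4 ranked at 77.9, 76.0, 77.2 and 79.0 and then at 71.8, 69.6, 72.9 and 63.1. For both genes every library at 39 °C was below every library at 37 °C. The differences of the means were -8.02 for Gata2 and -8.17 for Gata4 (exact permutation p = 0.0286 each, Benjamini-Hochberg adjusted p = 0.0540).

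Gata3 and Gata6 overlapped between temperatures. Gata3 ranked at 93.7, 91.3, 90.6 and 92.9 at 37 °C and at 90.6, 91.3, 90.4 and 88.3 at 39 °C, and Gata6 at 76.2, 72.8, 70.7 and 76.0 and then at 71.1, 67.8, 67.6 and 63.1. The differences were -1.99 and -6.55 (exact permutation p = 0.0571 each, adjusted p = 0.0898). Lower percentiles without overlap were thus found for 3 of 5 regulators, and for 52.4% of the 13145 coding genes tested. Higher percentiles were found for 0 of 5 and for 0.51% of genes. Without 37 °C replicate 3, all 5 regulators were lower without overlap. The median difference was -8.02 over the 5 and -2.51 over all genes tested. No gene passed an adjusted p of 0.05 in this test, in which 6955 genes had an unadjusted p below it and 0.0540 was the smallest adjusted p.

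In lists of equal length the mean percentile of the Cdx2 promoter was 33.1 at 37 °C and 14.0 at 39 °C, and that of Gata2 77.4 and 73.0, in both cases without overlap. Gata4 went from 66.6 to 64.8 with overlap. Gata3 went from 88.4 to 88.7 and Gata6 from 61.4 to 62.4, so the sign of their difference turned. There, 2 of 5 regulators were lower without overlap, against 15.4% of genes, and 0 of 5 were higher, against 7.75%.

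**Figure D2:**
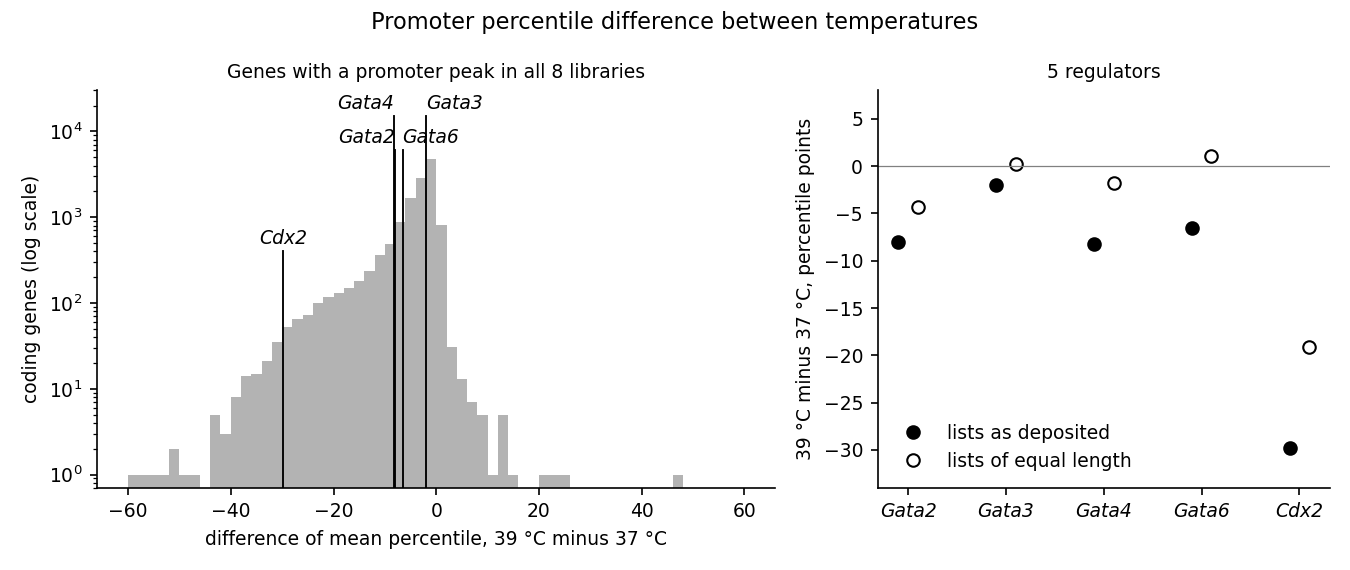
Left, number of coding genes (log scale) by the difference of mean promoter percentile, 39 °C minus 37 °C, for the 13145 genes with a promoter peak in all 8 libraries, with lines at 5 regulators. Right, the same difference for the 5 regulators in the lists as deposited (filled) and in lists of equal length (open). Cdx2 lies in the lower tail at -29.8 and is the lowest of the 5 also in equal lists, where Gata3 and Gata6 lie just above 0.

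The width of the promoter peaks followed the same order of groups. For Gata2 the summed width was 10454, 8943, 7365 and 10205 bp at 37 °C and 6043, 5788, 5914 and 5312 bp at 39 °C. No library at 39 °C reached the narrowest at 37 °C, and the difference of the means was -3478 bp (exact permutation p = 0.0286, adjusted p = 0.103). Gata4 had means of 1602 ± 75.0 and 1378 ± 89.4 bp (SD, n = 4) without overlap (p = 0.0286 by the same exact test). Gata3, Gata6 and Cdx2 overlapped, with means of 3319 and 2606, 3428 and 3048, and 2281 and 1657 bp. Narrower promoter peaks without overlap were seen for 2 of 5 regulators and 27.5% of genes, and wider ones for 0 of 5 and 0.129%. Without 37 °C replicate 3 the count was again 5 of 5. The median difference was -624 bp over the 5 and -357 bp over all genes tested.

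Within the loci, peaks were counted per library. There were 51, 46, 45 and 56 peaks over the 10 loci at 37 °C and 33, 33, 38 and 26 at 39 °C, or 0.0605% and 0.0509% of the lists on average. The difference was uneven. Spi1 and Tal1 had far fewer peaks at 39 °C, Cdx2 had the same number and Gata6 had a higher mean at 39 °C.

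Spi1 encodes PU.1, the ETS factor of myeloid and B cells. Its locus held 13, 12, 13 and 15 peaks at 37 °C and 7, 6, 6 and 7 at 39 °C. The groups did not overlap, and the difference of -6.75 was lower than in all but 3.28% of coding genes (exact permutation p = 0.0286, adjusted p = 0.120). With peaks of −log10 q of at least 5 the difference was -1.75 and the groups overlapped. Distal peaks, over 1 kb from any start site of the gene and of other genes, went from a mean of 10.3 to 3 in each library at 39 °C (exact permutation p = 0.0286, adjusted p = 0.150). Tal1, the helix-loop-helix factor of blood stem cells, had 3, 2, 2 and 3 peaks at 37 °C and 0, 0, 1 and 0 at 39 °C, again without overlap (exact permutation p = 0.0286, adjusted p = 0.120).

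Cdx2 had 6 peaks in each of the 8 libraries. Gata2 had 6, 7, 6 and 7 and then 5, 6, 6 and 4, Gata3 had 7, 4, 4 and 6 and then 3, 4, 5 and 2, and Gata4 had 5, 3, 3 and 5 and then 2, 1, 3 and 1. In all 3 the groups overlapped, and for Gata3 and Gata4 the most peaks were in 37 °C replicates 1 and 4, the deepest libraries. Gata6 had 1 peak in each library at 37 °C and 2, 2, 2 and 1 at 39 °C (difference 0.75, exact permutation p = 0.143), and 96.5% of coding genes had a lower difference.

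Pou5f1, the POU factor of pluripotent cells, had 2, 4, 5 and 5 peaks and then 2 in each library. Hnf4a, the nuclear receptor of liver and gut, had 6, 5, 3 and 6 and then 4, 5, 5 and 2. Myod1, which can turn other cells into muscle, had 2 in each library at 37 °C and 2, 1, 2 and 1 at 39 °C. These 3 also overlapped. Fewer peaks at 39 °C without overlap were found for 2 of 10 regulators and for 23.6% of coding genes with a peak in the locus, and more for 0 of 10 and 0.3%. Without 39 °C replicate 4, 1 of 10, Gata6, had more peaks at 39 °C without overlap. For distal peaks the counts were 1 of 10 against 18.6%, and 0 of 10 against 0.404%, and the first of these was 3 without 39 °C replicate 3, while the second was 1, again Gata6, without 39 °C replicate 4. The median difference in peaks was -1.5 over the 10 loci and -1 over all genes tested. No gene passed an adjusted p of 0.05 by the exact permutation test for locus peaks, distal peaks or widths, and 4375, 3205 and 3630 genes had an unadjusted p below it.

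**Figure D3:**
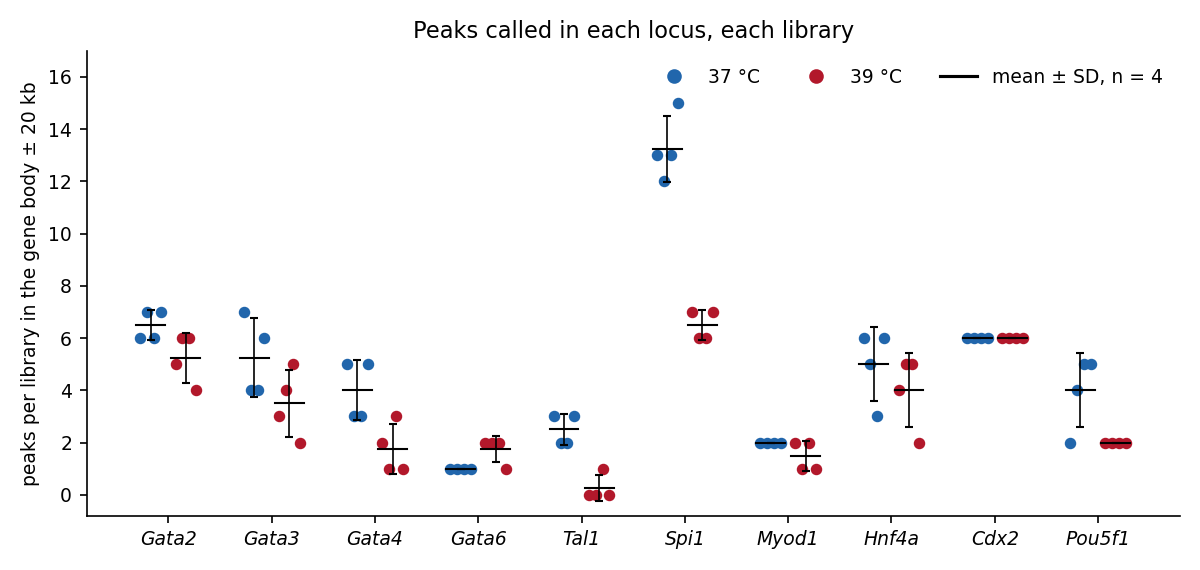
Peaks per library in the gene body and 20 kb on each side, for 10 genes, with 1 point per library, 4 at 37 °C (blue) and 4 at 39 °C (red), and black lines for the mean ± SD. Spi1 has 12 to 15 peaks at 37 °C and 6 or 7 at 39 °C, Cdx2 has 6 in every library, and the 2 colours do not overlap for Spi1 and Tal1.

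In lists of equal length 0 of 10 loci had fewer peaks at 39 °C without overlap, against 5.64% of coding genes, and 0 of 10 had more, against 3.38%. The Spi1 mean was then 4.75 peaks at 37 °C and 5.75 at 39 °C and the Pou5f1 mean 1.25 and 2, so both turned. No consensus region was gained there, since each one left in these loci was called in 4 libraries at 37 °C and 4 at 39 °C. In the Pou5f1 locus the only one left was chr17:35512370-35518873, at the promoters of Tcf19 and Cchcr1. The Tal1 locus held no peak in any library, and no promoter peak of Tal1, Spi1 or Pou5f1 was left. Their promoter peaks at 37 °C thus lay below the 54845 strongest of each list.

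Merging the peaks of all libraries gave 54 consensus regions in the 10 loci, each called in at least 2 libraries, out of 84777 in all. Of the 54, 12 lay at a start site of the gene itself, 9 at a start site of another gene and 33 were distal. Their summits fell in introns for 27, in exons for 13 and between genes for 14. All 8 libraries called 21 of them (38.9%), against 52.9% of all consensus regions. More 37 °C than 39 °C libraries called 31 of the 54, against 37.9% of all consensus regions, and more 39 °C libraries called 1, against 5.46%. A further count bears on depth, since 6 of the 54 (11.1%) were called only in 37 °C replicates 1 and 4, against 6.75% of all consensus regions.

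Regions called in all 4 libraries at 37 °C and in none at 39 °C numbered 5 of 54, or 9.26%, against 6.04% of all consensus regions. Those called at 39 °C only numbered 0, against 0.314%. Without 37 °C replicate 1 the first count was 8, and without 39 °C replicate 4 the second was 1. The 5 lay in the loci of Tal1, Pou5f1 and Spi1. All 5 were weak, with mean percentiles of 7.74 to 21.5 at 37 °C, and the count was 1 at a −log10 q of at least 5. In lists of equal length it was 0, where 2.67% of the 59041 consensus regions were called in all 4 libraries at 37 °C and in none at 39 °C, and 1.92% the other way round. The Fisher exact p of each was 0.0286, and 5386 regions had an unadjusted p below 0.05, none of them after adjustment (smallest 0.450). The sequence of mm10 from 100 bases before to 100 after each summit is shown for these 5, on the plus strand, because they are the only regions in the loci with a complete split between temperatures. Capitals mark a match to any of the motifs listed after the sequences:
Tal1 intron, chr4:115057164-115057364: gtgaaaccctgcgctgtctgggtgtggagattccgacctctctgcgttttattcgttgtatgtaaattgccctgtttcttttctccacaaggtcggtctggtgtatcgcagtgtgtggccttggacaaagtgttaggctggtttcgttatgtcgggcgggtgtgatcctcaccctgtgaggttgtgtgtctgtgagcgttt
Pou5f1 exon and intron, chr17:35509432-35509632: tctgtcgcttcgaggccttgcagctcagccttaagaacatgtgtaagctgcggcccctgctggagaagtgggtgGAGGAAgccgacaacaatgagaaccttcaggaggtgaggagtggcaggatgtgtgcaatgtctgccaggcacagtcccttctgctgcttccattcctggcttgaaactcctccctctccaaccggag
Spi1 upstream, chr2:91078545-91078745: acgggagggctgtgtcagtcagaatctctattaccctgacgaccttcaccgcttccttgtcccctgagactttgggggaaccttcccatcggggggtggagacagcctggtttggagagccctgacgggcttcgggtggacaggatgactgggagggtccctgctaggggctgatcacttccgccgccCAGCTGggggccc
Mybpc3 intron in the Spi1 locus, chr2:91125326-91125526: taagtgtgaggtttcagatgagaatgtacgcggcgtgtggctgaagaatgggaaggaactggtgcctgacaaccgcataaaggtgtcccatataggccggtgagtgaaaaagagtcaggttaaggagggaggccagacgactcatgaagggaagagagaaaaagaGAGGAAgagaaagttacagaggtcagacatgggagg
second Mybpc3 intron site, chr2:91132082-91132282: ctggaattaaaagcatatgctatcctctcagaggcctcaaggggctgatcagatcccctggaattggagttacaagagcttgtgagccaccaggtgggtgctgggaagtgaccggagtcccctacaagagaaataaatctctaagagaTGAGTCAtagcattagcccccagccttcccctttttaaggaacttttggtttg
The motifs searched on both strands, without a mismatch, were AGATAA or TGATAA for GATA factors, the E-box CAGCTG for factors such as MYOD1 and TAL1, GAGGAA for PU.1, TGANTCA for AP-1, CATTCCA for TEAD, TGTGGTT for RUNX, the octamer ATGCAAAT for POU factors and CAAAGTCCA for HNF4. The Tal1 window held none of them. The Pou5f1 window and the first Mybpc3 window held the PU.1 letters, the Spi1 upstream window the E-box and the second Mybpc3 window the AP-1 letters.

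Over the 52 regions outside the Gata6 locus, the windows held the GATA letters in 0 cases, against 11.4% of the 82202 consensus regions searched. They held the PU.1 letters in 11 (21.2%, against 18.9%), AP-1 in 8 (15.4%, against 28.9%), the E-box in 5 (9.62%, against 15.3%), TEAD in 2 (3.85%, against 6.14%) and RUNX in 2 (3.85%, against 9.91%). The octamer and the HNF4 letters were in 0, against 0.933% and 0.279%. The windows in the loci were richer in G and C, with a median of 56.7% against 50.7%, and the part of base composition in these shares was not tested.

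At Tal1 the region restricted to 37 °C was chr4:115056835-115057766, in an intron 838 bp from the gene's start. Its percentiles were 32.9, 10.3, 24.1 and 18.5 at 37 °C. An exonic region at chr4:115062932-115063859 was called in 4 libraries at 37 °C and 1 at 39 °C. At Pou5f1 the region was chr17:35508114-35510303, with a summit in an exon 3514 bp from the gene's start and near internal start sites, and percentiles of 22.1, 8.75, 4.48 and 26.0. It lay also within 1 kb of the start of Gm19553, so the peak cannot be given to either gene alone. Next to it, chr17:35512370-35518873 at the promoters of Tcf19 and Cchcr1 was among the strongest regions in any locus, at a mean of 96.6 and then 93.9.

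At Spi1 the regions restricted to 37 °C were chr2:91078391-91079027, 3745 bp upstream, and chr2:91124483-91126007 and chr2:91131301-91133015, both in introns of the neighbour Mybpc3, a cardiac muscle gene. Their mean percentiles were 7.74, 8.93 and 14.2. In contrast, 3 distal regions in the Spi1 gene body were called in all 8 libraries and were far stronger. The strongest, chr2:91114468-91116355, with its summit in a Spi1 exon 32904 bp from the start, ranked at 82.6, 82.3, 82.4 and 84.7 at 37 °C and at 76.0, 74.2, 78.3 and 71.8 at 39 °C. The Spi1 gene thus had strong accessible regions within it at both temperatures, while its promoter peak, at a mean percentile of 6.56 in the 3 libraries that had one, was close to the limit of calling.

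**Figure D4:**
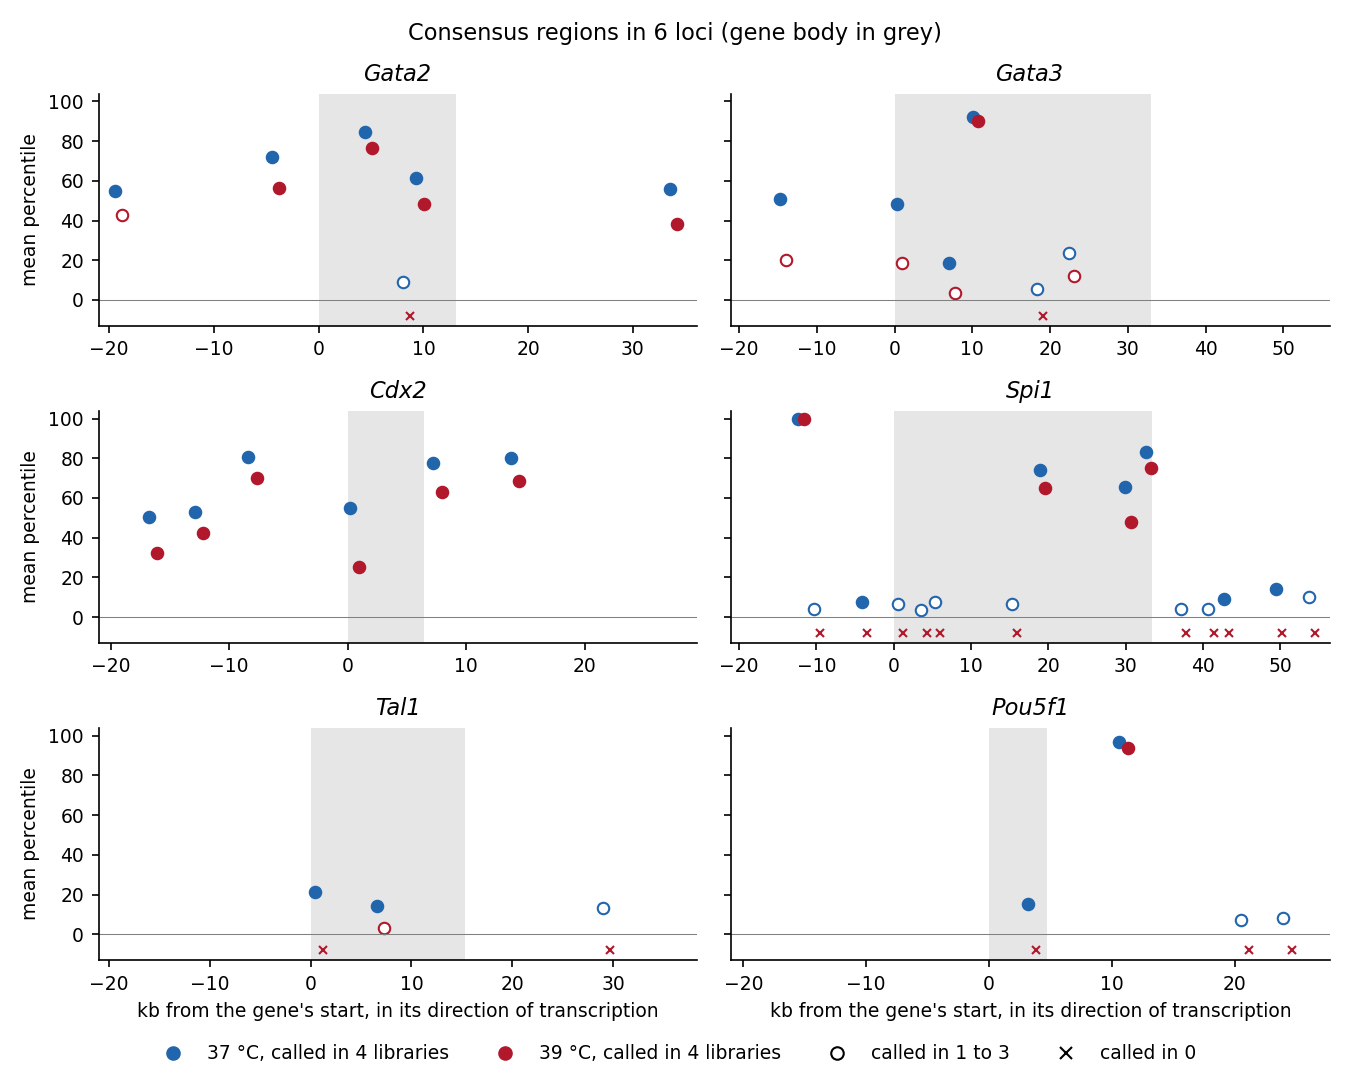
Mean percentile of each consensus region (vertical axis) at 37 °C (blue) and 39 °C (red) by the distance of its summit from the gene's start in kb, in the direction of transcription, in 6 loci with the gene body in grey. Filled points were called in 4 libraries of that temperature, open points in 1 to 3 and crosses in 0, and points of the same region are set slightly apart. All 6 Cdx2 regions are filled in both colours and lower in red, and 11 of the 15 Spi1 regions have a red cross.

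The Cdx2 locus was the only one of the 10 in which every consensus region was called in all 8 libraries, and all 6 ranked lower at 39 °C without overlap. They included chr5:147314431-147315959, 8039 bp upstream with its summit in an exon of Urad, which went from 80.6 ± 1.60 to 70.1 ± 2.95 (SD, n = 4), and chr5:147299015-147300456, 7570 bp from the start and just past the gene's end, which went from 77.7 ± 3.18 to 63.1 ± 5.43. The promoter region chr5:147304616-147307472, with its summit in a Cdx2 exon, was weaker than both flanking elements at either temperature and showed the largest difference of the 6. In lists of equal length, 4 of the 6 stayed lower without overlap. One of the others, chr5:147319279-147320608 in a Urad intron, turned, from 30.5 to 33.2.

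At Gata2 the promoter region chr6:88192951-88200810 spanned 7860 bp when merged over libraries, with its summit in an exon 307 bp from a start site. A second region, chr6:88202992-88205723 in an intron, went from 61.3 ± 4.08 to 48.5 ± 4.46 (SD, n = 4) and did not overlap, but in lists of equal length it went from 42.7 to 40.7 with overlap. The regions of the Gata2 locus that stayed without overlap there were the promoter region and chr6:88189109-88190530. The latter lay upstream of Gata2 at the promoter of another gene, Gm38708, with its summit in an intron of that gene. It went from 72.0 to 56.4 in the lists as deposited and from 58.4 to 49.9 in equal lists. At Gata3 the strong region was not at the first start of the gene. It was chr2:9877937-9880329, in an intron 10403 bp along the gene and near an internal start site, and it lay within 1 kb of the starts of the noncoding genes 4930412O13Rik and Gm13256 as well. At the upstream start, chr2:9888903-9890086 was called in 4 libraries at 37 °C and 3 at 39 °C, with means of 48.5 and 18.5 where called. It lay also within 1 kb of a start of 9230102O04Rik, with its summit in an exon of that gene.

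The Gata4 promoter peak lay at an internal start as well, at chr14:63244430-63246140, 26378 bp along the gene and 43 bp from that start. The remaining 4 regions of the Gata4 locus were all called in fewer libraries at 39 °C, and 2 of them only in the deepest 37 °C libraries. Gata6 had its promoter region, chr18:11051461-11055184, which lay also within 1 kb of a start of 1010001N08Rik. Its other region was distal, chr18:11100694-11101143, called in 0 libraries at 37 °C and 3 at 39 °C. It was the only region of the 54 with more libraries at 39 °C (Fisher exact p = 0.143), and its percentiles were 10.9, 15.7 and 7.40.

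The Hnf4a and Myod1 loci held no promoter peak of their own but were not empty. In Hnf4a the only distal region called in all 8 libraries was chr2:163531923-163532530, in an intron that overlaps the antisense gene Hnf4aos, and it went from 43.2 ± 7.58 to 25.9 ± 3.90 (SD, n = 4). In lists of equal length it went from 16.0 to 14.2 and overlapped. A stronger distal region, chr2:163534730-163535576, was called in 4 libraries at 37 °C, at a mean of 50.8, and in 3 at 39 °C. In the Myod1 locus the region chr7:46396245-46397192 at the promoter of Kcnc1, a potassium channel gene, went from 49.2 ± 3.63 to 14.6 ± 9.41, a difference of -34.6. The only other region there, chr7:46393096-46393764, lay 16895 bp from the Myod1 start and was called in 4 libraries and 2. No library called a peak over the Myod1 gene body start, which says only that none passed the caller at this depth.

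Over the loci, 17 of the 21 regions called in all 8 libraries ranked lower at 39 °C without overlap, against 54.2% of the 44861 such regions, and 0 ranked higher, against 0.798%. The median difference over all such regions was -6.84, and none passed an adjusted p of 0.05 by the exact permutation test (smallest 0.0520), with 24666 below it unadjusted. In lists of equal length 20 of the regions were still in all 8 libraries, of which 9 were lower without overlap, against 22.5% of regions, and 0 were higher, against 15.5%. The 9 were 4 regions in the Cdx2 locus, 2 in the Gata2 locus, 2 in the Spi1 locus and the Tcf19 promoter in the Pou5f1 locus. Of the Gata2 pair, 1 lay at the promoter of Gm38708. Of the Spi1 pair, 1 was chr2:91052405-91071554, at the promoters of Psmc3, Slc39a13 and Gm13778 and with its summit 11999 bp from the Spi1 start. That region went from 99.8 to 99.5 in equal lists.

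The genes whose promoter percentiles lay nearest to those of the GATA genes, by Euclidean distance over the 8 libraries, were Bub1b, Scrt1 and Cnih3 for Gata2 (2.57 to 2.86 percentile points), 6030445D17Rik, Kctd18 and Aph1a for Gata3 (1.03 to 1.32), Slc27a3, Gab3 and Zmym1 for Gata4 (1.35 to 2.13) and Vamp8, Tlr3 and Tmem38b for Gata6 (1.81 to 3.12). Per length of locus, Spi1 held 1.81 peaks per 10 kb at 37 °C and 0.886 at 39 °C, Cdx2 1.29 at both and Gata2 1.22 and 0.988. The order of these 3 loci thus differed between temperatures, with Spi1 first at 37 °C and last at 39 °C. In lists of equal length it did not, with Cdx2 at 1.29 at both temperatures, Gata2 at 1.08 and 0.988 and Spi1 at 0.647 and 0.784. The medians over coding genes were 0.538 and 0.428, and Gata6 held 0.136 and 0.238.

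A list of 42 other regulators of the same lineages gave a wider view. Of these, 20 had a promoter peak in at least 2 libraries at both temperatures (62.7% of all coding genes), 17 in all 8 (59.9%) and 14 in none (31.3%). The lists are short, and differences between them were not tested. Among GATA relatives and partners 5 of 8 were open in all 8 libraries, among them Zfpm1 and Zfpm2, which encode the FOG cofactors of GATA proteins, and the adaptors Lmo2 and Ldb1, which join GATA and TAL1 proteins on DNA. Gata1, the factor of red cells, had no promoter peak in any library, and Gata5 had one in 4 libraries at 37 °C and 0 at 39 °C, as did Lyl1, the relative of Tal1.

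Of 7 blood regulators 4 were open in all 8 libraries and 0 had no promoter peak. Of 9 liver and gut regulators 3 were open in all 8 and 4 in none, with Cdx1 at 4 and 0. Of 7 pluripotency and trophoblast regulators 4 were open in all 8 and 2 in none. In the heart and muscle lists 0 of 6 and 1 of 5 were open in all 8 libraries and 4 and 3 in none, with Mesp1, an early heart regulator, at 4 and 0. More 37 °C libraries held a promoter peak for 11 of the 42 and more 39 °C libraries for 0, against 7.97% and 0.47% of all coding genes. Of the 42, 9 had fewer peaks in the locus at 39 °C without overlap and 0 had more, against 23.6% and 0.3% of the coding genes tested. The first count was thus near the background. The genes tested all had a peak in the locus, whereas the 42 include some without one in any library, such as Myf5 and Sox17.

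**Figure D5:**
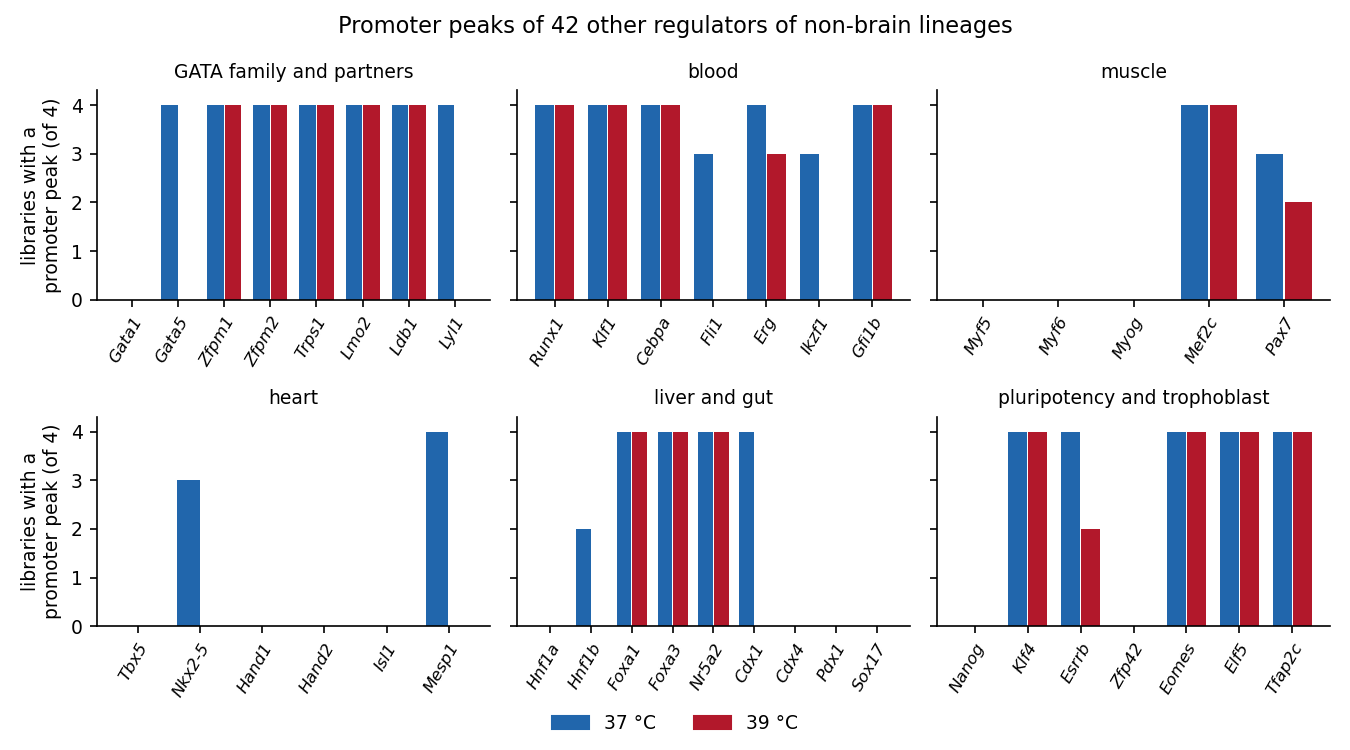
Number of libraries, of 4 at 37 °C (blue) and 4 at 39 °C (red), with a peak within 1 kb of a start site, for 42 other regulators in 6 lineage lists. Zfpm1, Lmo2 and Ldb1 reach 4 at both temperatures, Gata5, Lyl1, Mesp1 and Cdx1 have 4 and 0, and most of the heart and muscle genes have no bar.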

How the data were processed

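ATAC-seq peak lists of 8 SN4741 libraries, 4 at 37 °C and 4 at 39 °C, were analysed. The authors aligned reads to mm10 with Bowtie2 2.4.1, sorted and deduplicated them (Picard 2.26.11, SAMtools 1.15.1, by their methods) and called peaks per library with MACS3 3.0.0a7 at a q-value of 0.05 without a control library or local background. Their methods also removed peaks in regions prone to artefacts, but peak numbers in all 8 deposited lists run without a gap (0 missing), so whether that step was applied to them is not known. Per the file headers, 1 fragment was kept at each position, which dropped 15% to 37% of the fragments read as redundant, so repeated fragments were still in the caller's input. The deposited lists give each peak's pileup signal, fold enrichment, a ratio to a genome-wide background of that library, and −log10 p-value and −log10 q-value. They hold no counts per region, so depth enters every call, and values were ranked only within a list.

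Peaks were assigned to genes with GENCODE M21. A promoter peak lay within 1 kb of a start site, a distal peak did not, and a locus extended 20 kb past the gene. Peaks overlapping by at least 1 bp were merged, and consensus regions were called in at least 2 libraries. Groups without overlap had every 39 °C value on one side of every 37 °C value. Differences of means were tested by two-sided exact permutation over 70 assignments, presence by Fisher's exact test, each with Benjamini-Hochberg adjustment over all coding genes or regions (python 3.11.15, numpy 2.4.6, pandas 2.3.3, scipy 1.17.1). The steps were tested on simulated data. Replicate numbers were not used to pair libraries, and the p-values measure only the spread between these libraries, which may be technical.

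The genes, lists and tests were chosen with earlier results of these data known. Regions were named where they were restricted to 1 temperature or were the strongest distal region called in all 8 libraries of a locus, and promoter regions were named for each gene. Other regions named were chosen after their values were seen. Sequence of chromosome 18 was not used here. Alternatives covered a −log10 q of at least 5, equal list lengths, loci of 10 and 50 kb, promoters of 5 kb, ranking by fold enrichment, 50% coverage of a region, each library left out and a replicate block. Use of libraries with fewer than 100 M fragments was added after seeing the data, as were region percentiles in equal lists.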

Additional observations from a re-analysis of the deposited data

Results flagged for a closer look

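Of 40 groups of 4 libraries examined, 3 held a library apart from the other 3, where chance gives about 1 in 20 for values without ties. In 2 of the 3 the values are whole counts with the other libraries tied, to which that rate does not apply. In the Gata6 locus, 39 °C replicate 4 had 1 peak and the others 2. In the Tal1 locus, 39 °C replicate 3 had 1 peak and the others 0. The Gata4 promoter peak was 1245 bp wide in 39 °C replicate 2 and 1405 to 1435 bp in the others. The first of these was in the library with the fewest peaks, 54845, and the part of list length in it was not tested.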

How the results depend on the processing

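The peak lists carry no counts, so a weak region can be lost with depth or list length alone, and the 37 °C lists were the longer ones. With 4 libraries against 4 no exact p can go below 0.0286. Regions restricted to 37 °C numbered 5 as deposited, 1 at a −log10 q of at least 5 and 0 in lists of equal length, which hold fewer peaks by construction. In equal lists no regulator kept a locus difference (0, from 2) or a distal one (0, from 1) without overlap. The differences that turned there were those of promoter percentile for Gata3 (0.280) and Gata6 (1.05) and of locus peaks for Spi1 (1) and Pou5f1 (0.75). Spi1 locus peaks overlapped at a −log10 q of at least 5 (-1.75), where Gata4 (-2.5) did not. In loci of 50 kb on each side, 1 regulator in place of 2 had fewer peaks without overlap, since Tal1 overlapped there. With promoters of 5 kb, 7 regulators in place of 5 had a promoter peak in at least 2 libraries at both temperatures, and 5 had lower percentiles and 4 narrower peaks, from 3 and 2. The cause of these changes was not tested.

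Leaving out each library in turn gave 2 to 3 regulators for locus peaks, 3 to 5 for promoter percentiles, 2 to 5 for widths and 1 to 3 for distal peaks, 5 to 5 for promoters open at both temperatures, 5 to 8 regions restricted to 37 °C and 0 to 1 restricted to 39 °C. The highest counts for percentiles and widths came without 37 °C replicate 3, for restricted regions without 37 °C replicate 1 (8), for fewer distal peaks without 39 °C replicate 3 (3), and for 39 °C without 39 °C replicate 4 (1, the distal Gata6 region). Without 39 °C replicate 4 the counts of 3 for locus and 2 for distal peaks include Gata6, which had more peaks at 39 °C. Replicate numbers did not pair the libraries, since correlations of same-numbered deviations ran from -0.514 to 0.288 and 1 of 4 was over 0.1. With the replicate block, 5 regulators had lower percentiles and 5 narrower peaks in every pair, with 2 for locus and 1 for distal peaks, and the smallest exact p was 0.125. With libraries of fewer than 100 M fragments, an alternative chosen after seeing the data, the counts were 3 for locus peaks, 3 for percentiles and 6 regions restricted to 37 °C. Ranking by fold enrichment gave the same percentile differences, since fold and q rank peaks alike in lists called without a local background, and is left out of the following tally, as is the replicate block. Over the other alternatives, 77 counts stayed within 1.5 times of the reported one and 13 did not. Of the values of single genes, 168 kept their direction and call, and 5 whose groups had overlapped went to a difference of 0. In 9 the groups no longer overlapped, in 4 they newly did and 4 turned. Among those that newly overlapped, Tal1 locus peaks in equal lists also went to a difference of 0, with no peak in any library there.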
